A study of Mus musculus with 12 samples.

Results

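The DNA replication genes described here are 39 listed mouse genes that copy the chromosomes in S phase: the subunits of the MCM helicase, the factors that load and start it, the polymerases, the sliding clamp and its loader, and the enzymes that supply nucleotides, join Okazaki fragments and rebuild chromatin. They were taken by gene symbol from a list and not by their values, and all 39 were found among the 32121 genes of the deposited table. Spleen RNA came from 3 SB animals, which carried VEC-Cre, the SB Transposase and the onc2 transposon, and from 3 WT animals, all of strain C57BL/6, with 2 pieces sequenced per spleen. VEC-Cre is Cre recombinase under the VE-cadherin promoter, which is active in endothelium and in the early blood cells that arise from it, and SB is Sleeping Beauty, a transposase that moves onc2 about the genome as a mutagen. The study asked how alike separate pieces of one spleen are, as a reading of clonality in a forward genetic screen. Transposon insertions were not analysed here, and the SB animals are grouped by genotype alone. Age is not given in the labels used here.

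Before S phase, the origin recognition complex, Cdc6 and Cdt1 load the MCM ring onto DNA in a step called licensing. Cdc45 and the GINS complex then turn the ring into a moving helicase, polymerase alpha with primase lays down primers, the RFC complex loads the PCNA clamp, and polymerases delta and epsilon extend the new strands. Many of these genes are transcribed by E2F factors as a cell commits to division, and their RNA is low in resting cells. In a mouse spleen most lymphocytes rest, while erythroid and other blood precursors of the red pulp divide.

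The libraries held 14320833 to 22031026 counts, and every member had at least 33 counts in every library. Levels are given as CPM, counts scaled to a common library size with edgeR's TMM factors, and a gene was called when its adjusted p in edgeR's quasi-likelihood test, run over 17328 genes on the summed pieces of each animal, was under 0.05. The spleen label was checked against cell type markers. All 8 B cell markers were lower in SB, with a summed level of 56.1 to 143 CPM in SB libraries against 7089.8 to 9426 CPM in WT libraries, and the 9 T cell markers summed to 25.4 to 149 CPM in SB against 862 to 1141 CPM in WT. The RNA of mature lymphocytes that marks a spleen was therefore present in WT and scarce in SB. Xist RNA, which marks cells with an inactive X chromosome, measured 2268 and 1000.3 CPM in SB animals 1 and 2. It was at 1.67 CPM in SB animal 3 and at 1.48 to 2.43 CPM in WT. Ddx3y, a gene of the Y chromosome, had 0.255 and 0.181 CPM in SB animals 1 and 2. It had 95.9 CPM in SB animal 3 and 60.6 to 75.9 CPM in WT animals. By these genes SB animals 1 and 2 read as female, and SB animal 3 and the 3 WT animals as male. Sex was thus partly confounded with genotype, and its part in the changes was not tested.

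Replication RNA took a larger share of the SB libraries. The 39 genes summed to 4753 to 6200.4 CPM in the 6 SB libraries and to 1803 to 2493 CPM in the 6 WT libraries, so the lowest SB piece lay well above the highest WT piece. Of the 39 members 30 were called higher in SB, 0 were called lower and 9 did not pass, where 8.59% of all genes tested were called higher and 9.75% lower. The median log2 change of the members was 1.59, a 3.01-fold difference, beside 0.11 over all genes tested, and every member had a positive fitted change, from 0.19 for Rfc1 to 2.47 for Cdc6. In 34 members all 6 SB libraries lay above all 6 WT libraries, against 13.2% of all genes tested. The median of the members against the WT mean, on the log2(CPM + 1) scale, was 1.55 in SB animal 1, 1.60 in SB animal 2 and 1.37 in SB animal 3. CPM is a share of a library. In bulk RNA, more cells in S phase, fewer resting cells and more replication RNA per cell cannot be told apart.

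**Figure D1:**
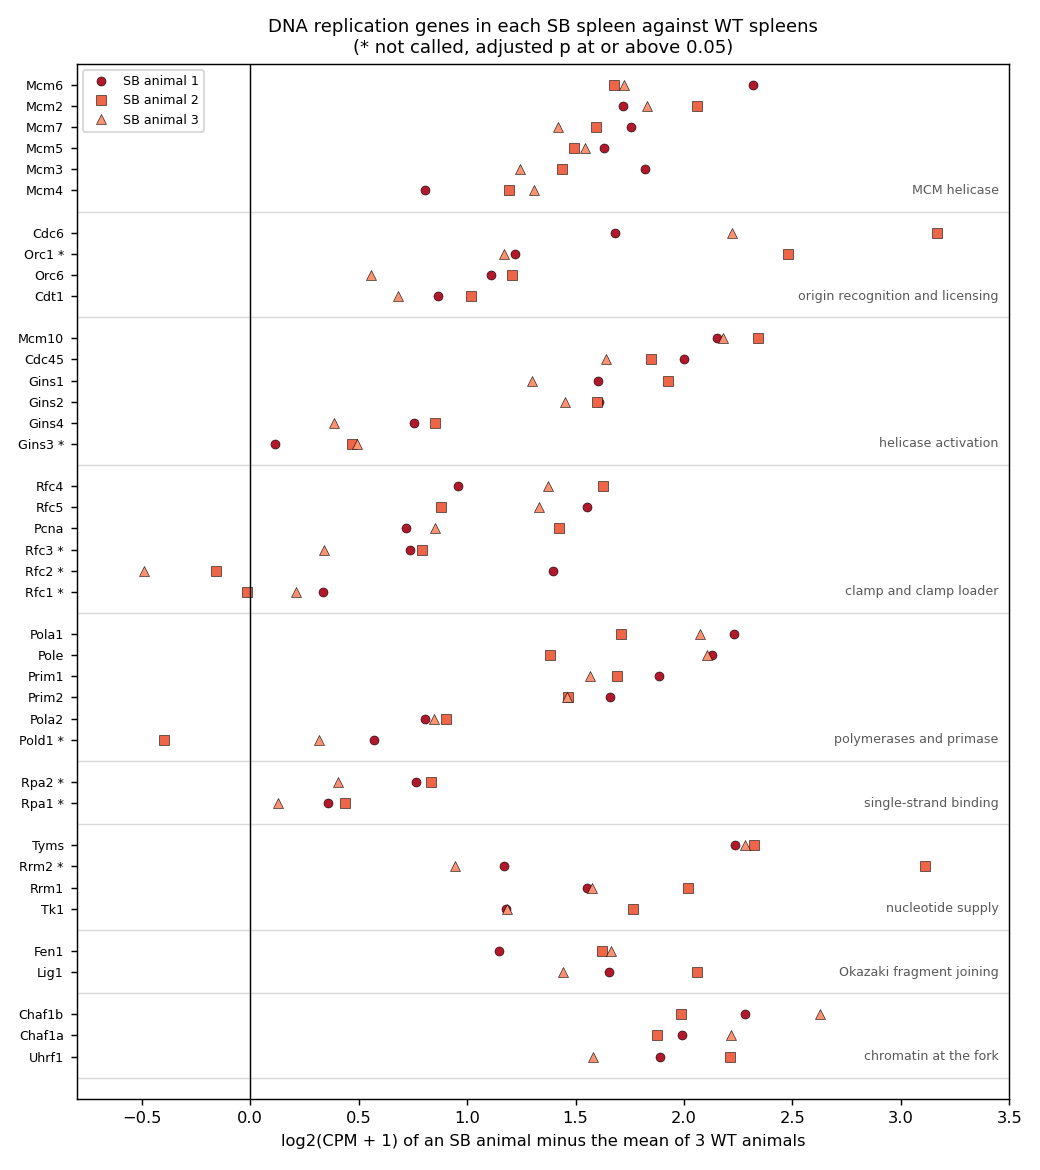
Each row is a member, grouped by role, and each point is the log2(CPM + 1) of an SB animal minus the mean of 3 WT animals. In 36 of the 39 members all 3 SB animals lie to the right of 0. Rfc1, Rfc2 and Pold1 have at least 1 animal to its left, and Rrm2, Orc1 and Cdc6 are far higher in SB animal 2 than in the others.

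The number of calls leaned on the WT animals. Without WT animal 1, 2 or 3 the members called higher numbered 16, 9 and 13, while leaving out SB animal 1, 2 or 3 gave 29, 30 and 32. Over all genes, 1489 were called higher with all animals. Without WT animal 1, 2 or 3 that count was 241, 86 and 142, and without SB animal 1, 2 or 3 it was 2168, 3085 and 1577. In either direction 818, 554 and 636 genes were called without WT animal 1, 2 or 3, against 3178 with all animals. Mcm2, Mcm5, Mcm10, Pola1, Prim1, Prim2, Tyms, Chaf1a and Chaf1b, 9 members in all, were called in each of the 6 fits. The share of all genes called in each of the 6 fits was not counted, so 9 has no background here. The median log2 change of the members stayed between 1.46 and 1.68.

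Promoters of members that were called and of members that were not are shown here because the list is defined by function and many replication genes are E2F targets. RefSeq promoter windows of the GRCm38.p6 build, from 250 bases before to 50 bases after a start site, were matched for 32 of the 39 members. The E2F letters searched were TTTCCCGC, TTTGGCGC, TTTCGCGC and TTTGCCGC on both strands, and the windows of 13 of the 32 genes (40.6%) held at least 1 match, against 2.6% of 27025 genes with a window. Among members called higher 9 of 24 (37.5%) held a match, and among members not called 4 of 8 (50%) did. The CCAAT box (CCAAT, both strands) was in 65.6% of the member genes and 41.1% of all genes, and the CHR letters TTTGAA, both strands, were in 12.5% and 20.2%. A match describes the letters and is not evidence of binding. The sequences below run 5′ to 3′ along the gene's strand from 250 bases before to 30 bases after the start site, with E2F matches in capitals. Mcm5 (chr8:75109259-75109538, plus strand) and Mcm6 (chr1:128359676-128359955, minus strand) are helicase subunits that were called, Cdc6 (chr11:98907901-98908180, plus strand) had the largest change, Rfc3 (chr5:151651179-151651458, minus strand) holds matches and was not called, and Rrm2 (chr12:24708004-24708283, plus strand) holds none and was the most uneven member among SB animals.
Mcm5: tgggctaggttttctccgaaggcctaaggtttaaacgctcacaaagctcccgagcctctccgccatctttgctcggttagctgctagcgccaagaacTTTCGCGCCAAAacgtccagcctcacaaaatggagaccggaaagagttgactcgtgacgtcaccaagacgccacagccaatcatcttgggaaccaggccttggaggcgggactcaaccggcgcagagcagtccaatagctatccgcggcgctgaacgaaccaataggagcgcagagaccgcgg
Mcm6: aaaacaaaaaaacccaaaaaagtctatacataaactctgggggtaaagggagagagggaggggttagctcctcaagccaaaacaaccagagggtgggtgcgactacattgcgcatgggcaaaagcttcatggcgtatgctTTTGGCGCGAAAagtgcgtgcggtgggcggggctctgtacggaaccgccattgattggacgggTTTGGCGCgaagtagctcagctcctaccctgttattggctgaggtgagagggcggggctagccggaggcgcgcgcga
Cdc6: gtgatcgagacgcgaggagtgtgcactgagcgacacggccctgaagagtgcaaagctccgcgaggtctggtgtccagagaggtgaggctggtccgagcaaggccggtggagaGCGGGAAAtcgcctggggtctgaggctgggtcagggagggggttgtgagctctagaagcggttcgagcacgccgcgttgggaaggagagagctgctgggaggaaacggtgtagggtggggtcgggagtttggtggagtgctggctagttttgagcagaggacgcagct
Rfc3: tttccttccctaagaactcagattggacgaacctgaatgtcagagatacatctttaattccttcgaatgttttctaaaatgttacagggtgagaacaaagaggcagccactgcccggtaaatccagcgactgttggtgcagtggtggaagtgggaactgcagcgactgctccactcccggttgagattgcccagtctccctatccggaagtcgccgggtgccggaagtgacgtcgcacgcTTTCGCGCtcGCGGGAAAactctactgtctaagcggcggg
Rrm2: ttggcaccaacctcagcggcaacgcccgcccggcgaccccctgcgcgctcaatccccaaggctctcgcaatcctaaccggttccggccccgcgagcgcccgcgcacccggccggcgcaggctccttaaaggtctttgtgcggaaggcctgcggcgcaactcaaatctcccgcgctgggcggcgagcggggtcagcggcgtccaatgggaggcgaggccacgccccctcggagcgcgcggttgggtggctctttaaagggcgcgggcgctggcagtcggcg
In Mcm5 the overlapping matches begin 153 and 149 bases before the start site, in Mcm6 at 110, 106 and 47 bases before it, in Cdc6 at 138 bases before it, and in Rfc3 at 10 bases before it and at the start site itself.

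The MCM helicase, the ring of Mcm2 to Mcm7 that unwinds the template, was higher in SB as a whole. All 6 subunits were called, with a median log2 change of 1.57. Mcm5 (ENSMUSG00000005410, GRCm38 chromosome 8, 75109569 to 75128439) had a lowest, median and highest library of 261, 282 and 346 CPM in SB and of 79.2, 101 and 123 CPM in WT. Its animals averaged 293 ± 14.2 CPM in SB and 99.6 ± 15.5 CPM in WT (SD, n = 3 each), so that its log2 change was 1.55 (SE 0.17, adjusted p = 0.00525 in edgeR), and no SB library came near a WT library. Mcm4, the subunit with the largest adjusted p, had 110, 194 and 229 CPM in SB libraries and 77.6, 87.9 and 94.5 CPM in WT libraries, a log2 change of 1.12 (SE 0.18, adjusted p = 0.0131 in edgeR). Its lowest SB library, piece 2 of SB animal 1, was still above the highest WT library. Mcm6 changed most within the ring, at 444 ± 117 CPM in SB and 117 ± 23.4 CPM in WT, with a log2 change of 1.93 (SE 0.26).

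The subunits enter the ring in equal numbers, and their RNA levels per length can be compared in TPM, which divides counts by gene length and then by library total, with lengths from the union of a gene's exons. Mcm2 was the lowest subunit in all 6 animals, at 131 to 167 TPM in SB and 27.3 to 38.4 TPM in WT. This order rests in part on the lengths, as Mcm2 has 6956 exon bases and the other subunits 3589 to 4666. Without division by length Mcm2 averaged 309 CPM in SB, above Mcm4, Mcm5 and Mcm7. In WT it averaged 84.9 CPM, the lowest of the ring. The highest subunit was Mcm6 in SB animals 1 and 3, at 453 and 319 TPM, and Mcm3 in SB animal 2 and in the 3 WT animals, at 225 TPM in SB animal 2 and 78.6 to 97.0 TPM in WT. The highest level over the lowest was 3.12, 1.72 and 1.91 in SB animals 1, 2 and 3, and 2.43, 2.68 and 2.88 in WT animals 1, 2 and 3, so the ranges of the genotypes overlap.

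Of the 4 licensing factors 3 were called higher in SB, with the largest change in Cdc6. Orc1 and Orc6 are subunits of the complex that marks origins, while Cdc6 and Cdt1 bring in the MCM ring. Cdt1 (ENSMUSG00000006585, GRCm38 chromosome 8, 122568015 to 122573554), an MCM loader whose protein is destroyed once S phase begins, had a lowest, median and highest library of 113, 132 and 151 CPM in SB and 65.3, 70.5 and 82.5 CPM in WT, a log2 change of 0.87 (SE 0.16, adjusted p = 0.0167 in edgeR). Cdc6, the ATPase that acts with the origin recognition complex, had 50.8, 144 and 74.1 CPM in SB animals 1, 2 and 3 and 22.2, 17.2 and 8.94 CPM in WT animals 1, 2 and 3. All SB libraries were above all WT libraries, and SB animal 2 was the highest. The log2 change of Cdc6 was 2.47 (SE 0.51, adjusted p = 0.0256 in edgeR). Orc6 averaged 74.5 ± 17.1 CPM in SB and 37.4 ± 5.04 CPM in WT, a log2 change of 1.00 (SE 0.23, adjusted p = 0.033 in edgeR). Orc1, the subunit whose level varies through the cell cycle, had 15.2, 37.6 and 14.6 CPM in SB animals 1, 2 and 3 and 7.72, 7.10 and 3.71 CPM in WT animals 1, 2 and 3. Its groups did not overlap, but with a log2 change of 1.86 (SE 0.51) it missed the threshold, at an edgeR adjusted p of 0.0536.

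Helicase activators followed, with 5 of 6 called and a median log2 change of 1.69. Mcm10 (ENSMUSG00000026669, GRCm38 chromosome 2, 4989714 to 5012791), which helps the helicase start, was even across SB animals, with a lowest, median and highest library of 67.7, 69.5 and 81.7 CPM in SB and of 9.35, 15.9 and 20.8 CPM in WT. This was a log2 change of 2.25 (SE 0.27, adjusted p = 0.0068 in edgeR), and each SB library was above 3 times the highest WT library. Cdc45, the helicase cofactor, averaged 53.4 ± 6.72 CPM in SB and 14.7 ± 4.67 CPM in WT (log2 change 1.86, SE 0.28). The 4 GINS subunits, which form 1 complex in equal numbers, had unequal changes, whose differences were not tested. Gins1 and Gins2 each had a log2 change of 1.69 (SE 0.31 and 0.24), and Gins4 one of 0.69 (SE 0.18, adjusted p = 0.0465 in edgeR). Gins3 had 15.1, 19.2 and 21.5 CPM in SB libraries and 11.7, 14.6 and 16.9 CPM in WT libraries, so its groups overlapped, with a log2 change of 0.39 (SE 0.22, adjusted p = 0.263 in edgeR).

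The clamp and its loader were mixed, with 3 of 6 called and a median log2 change of 0.84. Pcna, the ring that tethers polymerases to DNA, averaged 141 ± 38.8 CPM in SB and 68.8 ± 9.36 CPM in WT (log2 change 1.03, SE 0.24, adjusted p = 0.0341 in edgeR). Rfc5 and Rfc4, small loader subunits, were called too. Rfc5 had a lowest, median and highest library of 59.1, 85.2 and 101 CPM in SB and of 28.3, 34.8 and 37.8 CPM in WT, with a log2 change of 1.30 (SE 0.21, adjusted p = 0.0133 in edgeR). Rfc4 averaged 51.0 ± 11.7 CPM in SB and 19.7 ± 3.77 CPM in WT (log2 change 1.37, SE 0.25). The other 3 loader subunits did not pass. Rfc3 averaged 47.9 ± 7.89 CPM in SB and 30.5 ± 1.80 CPM in WT, with no overlap of libraries and an edgeR adjusted p of 0.0576. Rfc1, the large subunit, averaged 128 ± 15.7 CPM in SB and 112 ± 4.01 CPM in WT, with a log2 change of 0.19 (SE 0.15, adjusted p = 0.415 in edgeR). Rfc2 (ENSMUSG00000023104, GRCm38 chromosome 5, 134581366 to 134601805) split the SB animals, with 392, 132 and 105 CPM in SB animals 1, 2 and 3 and 156, 146 and 143 CPM in WT animals 1, 2 and 3. SB animal 1 lay above every WT animal and the other SB animals below every WT animal, and the fitted log2 change of 0.50 (SE 0.50, adjusted p = 0.515 in edgeR) turned to -0.32 without SB animal 1.

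Polymerase alpha and primase, the complex that starts each new strand, were higher in SB in all 4 subunits. Pola1, the catalytic subunit (ENSMUSG00000006678, GRCm38 chromosome X, 93304767 to 93632155), had the smallest adjusted p of all members. Its lowest, median and highest library were 74.1, 92.0 and 130 CPM in SB and 19.2, 23.7 and 29.6 CPM in WT, a log2 change of 2.06 (SE 0.21, adjusted p = 0.00422 in edgeR). Pola1 is the only member on the X chromosome. In SB animal 3, the SB animal whose Xist level was like that of WT, it stood at 101 CPM, against 19.9 to 25.9 CPM in WT animals. Prim1 and Prim2, the primase subunits, had log2 changes of 1.75 (SE 0.19) and 1.58 (SE 0.17), and Pola2 one of 0.86 (SE 0.15). Pola2 was level across SB animals, at 110 ± 3.67 CPM in SB and 60.8 ± 6.68 CPM in WT.

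Of the polymerases that extend the strands, Pole was called and Pold1 was not. Pole, the catalytic subunit of the leading-strand polymerase epsilon, averaged 88.0 ± 23.7 CPM in SB and 22.8 ± 3.27 CPM in WT (log2 change 1.95, SE 0.26, adjusted p = 0.00821 in edgeR). Pold1 (ENSMUSG00000038644, GRCm38 chromosome 7, 44532746 to 44548849), the catalytic subunit of the lagging-strand polymerase delta, had 190.0, 96.7 and 159 CPM in SB animals 1, 2 and 3 and 123, 147 and 115 CPM in WT animals 1, 2 and 3. SB animal 2 was below all WT animals and the other SB animals above them, and the log2 change was 0.21 (SE 0.27, adjusted p = 0.613 in edgeR). It was -0.00097 without SB animal 1.

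RPA, which coats single-stranded DNA at the fork and in repair, had neither listed subunit called. Rpa2 had a lowest, median and highest library of 93.6, 117 and 139 CPM in SB and of 59.7, 79.0 and 84.0 CPM in WT, with a log2 change of 0.67 (SE 0.20, adjusted p = 0.0629 in edgeR) and no overlap. Rpa1, the large subunit, had 188, 223 and 276 CPM in SB and 165, 182 and 207 CPM in WT, with overlapping groups and a log2 change of 0.31 (SE 0.15, adjusted p = 0.196 in edgeR). Neither p shows that the level was the same in both genotypes.

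In nucleotide supply 3 of 4 members were called higher in SB. Tyms (ENSMUSG00000025747, GRCm38 chromosome 5, 30058202 to 30073617), thymidylate synthase, was the most even of all members between SB animals, with a lowest, median and highest library of 75.6, 87.7 and 92.7 CPM in SB and of 9.41, 18.4 and 23.2 CPM in WT. Its log2 change was 2.30 (SE 0.26, adjusted p = 0.00534 in edgeR). Rrm1, the large subunit of ribonucleotide reductase, averaged 379 ± 72.1 CPM in SB and 115 ± 20.98 CPM in WT (log2 change 1.72, SE 0.23), and Tk1, the S-phase thymidine kinase, 117 ± 29.3 CPM in SB and 44.4 ± 9.26 CPM in WT (log2 change 1.40, SE 0.25). Rrm2, the small subunit that S-phase cells make (ENSMUSG00000020649, GRCm38 chromosome 12, 24708241 to 24714146), had 191, 736 and 164 CPM in SB animals 1, 2 and 3 and 128, 95.2 and 49.2 CPM in WT animals 1, 2 and 3. Every SB library was above every WT library, yet the spread of SB left the log2 change of 2.00 with an SE of 0.69 and an edgeR adjusted p of 0.0971. Without SB animal 2 the log2 change was 0.96.

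**Figure D2:**
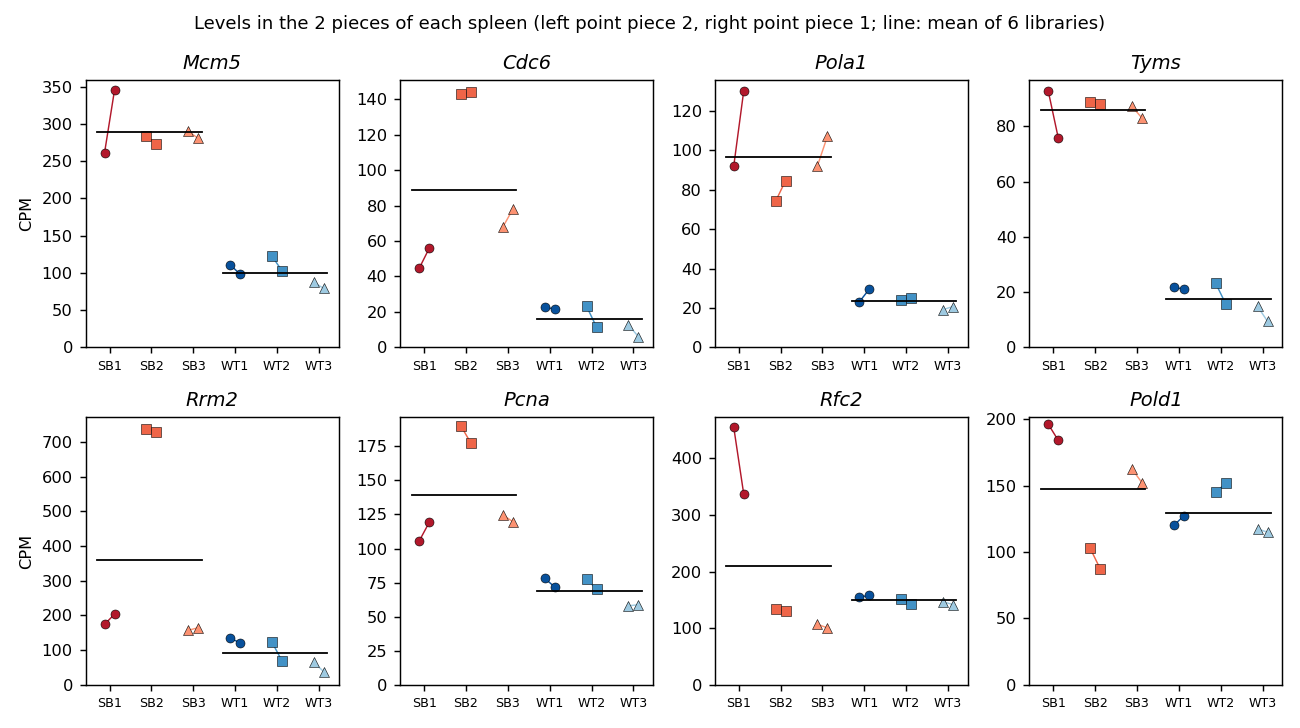
CPM of 8 members in the 12 libraries, the left point of each pair being piece 2 and the right point piece 1, with a line at the mean of the 6 libraries of a genotype. Mcm5, Pola1 and Tyms are high in all SB spleens, Rrm2 and Cdc6 stand highest in SB animal 2, and Rfc2 is above all WT libraries in SB animal 1 and below them in SB animals 2 and 3.

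Okazaki fragment joining and chromatin genes were called throughout. Lig1 (ENSMUSG00000056394, GRCm38 chromosome 7, 13277283 to 13311433), the ligase that seals the lagging strand, had a lowest, median and highest library of 187, 230.2 and 326 CPM in SB and of 49.3, 72.5 and 97.2 CPM in WT, a log2 change of 1.73 (SE 0.26, adjusted p = 0.0114 in edgeR). Fen1, the flap nuclease, had 5.13, 10.3 and 10.6 CPM in SB and 1.98, 2.76 and 3.61 CPM in WT, a log2 change of 1.80 (SE 0.31, adjusted p = 0.0146 in edgeR). Fen1 was the lowest member by CPM, and 78.8% of its exon bases are shared with the antisense gene Gm10143. Chaf1b (ENSMUSG00000022945, GRCm38 chromosome 16, 93883901 to 93906115) and Chaf1a, subunits of the CAF-1 complex that places histones on new DNA, had log2 changes of 2.37 (SE 0.25, adjusted p = 0.00476 in edgeR) and 2.07 (SE 0.25). Chaf1b libraries had 69.0, 92.5 and 120.0 CPM in SB and 13.6, 18.1 and 24.6 CPM in WT. Uhrf1, which guides DNA methylation onto new strands, had 129, 163 and 215 CPM in SB and 29.8, 43.8 and 58.2 CPM in WT (log2 change 1.91, SE 0.27, adjusted p = 0.00905 in edgeR). The 3 chromatin members had the highest median of any role, 2.07.

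Other replication genes, listed for their role, were tested in the same fit. Their list was made with earlier results of these data known. Of 62 tested, 32 were called higher, 4 lower and 26 did not pass, with a median log2 change of 0.84. The 4 called higher with the smallest adjusted p were Ticrr, a firing factor (46.4 ± 4.76 CPM in SB and 8.09 ± 1.42 CPM in WT, log2 change 2.52), Wdhd1, a fork scaffold (log2 change 1.76), Dna2, a flap nuclease (log2 change 1.73), and Pole3, a polymerase epsilon accessory subunit (log2 change 1.28). Gmnn encodes geminin, the inhibitor of Cdt1, and was called higher at 72.4 ± 17.7 CPM in SB and 26.4 ± 5.44 CPM in WT (log2 change 1.45, SE 0.26, adjusted p = 0.0166 in edgeR). All 4 fork protection genes tested were called higher, and 1 of 6 checkpoint genes, Chek1, was. Without WT animal 1, 2 or 3 the list had 13, 3 and 7 genes called higher, where 241, 86 and 142 of all genes were.

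The 4 called lower were Pold4, Tk2, Rrm2b and Rad9a. Pold4 is the smallest subunit of polymerase delta, Tk2 the mitochondrial thymidine kinase and Rrm2b the p53-induced small subunit of ribonucleotide reductase. Pold4 averaged 41.9 ± 10.1 CPM in SB and 145 ± 8.54 CPM in WT (log2 change -1.80, SE 0.21, adjusted p = 0.00562 in edgeR). Tk2 averaged 73.3 ± 23.2 CPM in SB and 202 ± 2.19 CPM in WT (log2 change -1.46, SE 0.25), Rrm2b 17.7 ± 2.90 CPM in SB and 41.0 ± 3.37 CPM in WT (log2 change -1.21, SE 0.20), and Rad9a, a checkpoint clamp subunit, had a log2 change of -0.85 (SE 0.14). Per length, Tk1 was at 73.8 ± 2.86 TPM in SB and 23.8 ± 3.53 TPM in WT, while Tk2 was at 66.8 ± 11.1 TPM in SB and 159 ± 8.96 TPM in WT. The level of Tk1 over that of Tk2 was thus 1.12 ± 0.157 in SB and 0.151 ± 0.0307 in WT (n = 3 each). Rrm2 over Rrm2b was 43.2, 133 and 26.6 in SB animals 1, 2 and 3 and 11.4, 7.42 and 3.73 in WT animals 1, 2 and 3. Pold1 over Pold4 was 1.23, 0.434 and 1.09 in SB and 0.216, 0.230 and 0.188 in WT. In each pair every SB ratio was above every WT ratio. The second gene of each pair was one of those called lower, so this separation was partly set by that choice. By contrast, Rrm2 over Rrm1 overlapped between genotypes. It was 2.27, 6.33 and 1.91 in SB animals 1, 2 and 3 and 3.89, 3.09 and 2.15 in WT animals 1, 2 and 3. No test was run on the ratios. Without WT animal 1, 2 or 3, 1 gene of the list was called lower, where 577, 468 and 494 of all genes were.

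**Figure D3:**
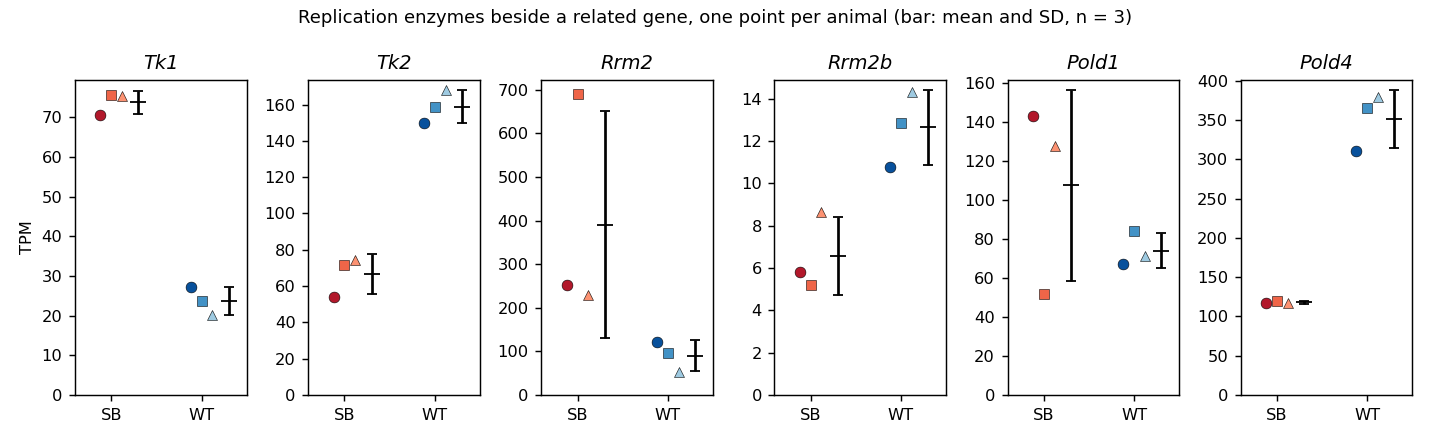
TPM of 3 members (Tk1, Rrm2 and Pold1) and of a related gene beside each (Tk2, Rrm2b and Pold4), with a point per animal and the mean and SD (n = 3) at the side. Tk2, Rrm2b and Pold4 are lower in all SB animals than in all WT animals, while Tk1 and Rrm2 are higher and Pold1 overlaps.

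The E2F and Rb families, which switch many of these genes on and off, were measured alongside. Of 13 tested 7 were called higher and 0 lower, with a median log2 change of 0.96. Tfdp1, the partner of E2F proteins, averaged 123 ± 20.3 CPM in SB and 30.0 ± 4.08 CPM in WT (log2 change 2.04, SE 0.20, adjusted p = 0.00392 in edgeR). Rbl1, which encodes the Rb relative p107, had a log2 change of 0.96 (SE 0.13), and the late repressors E2f7 and E2f8 had log2 changes of 2.80 (SE 0.43) and 2.88 (SE 0.49). E2f1, E2f3 and E2f6 were the other 3 called. Mitosis genes, of which 17 of 20 were called higher, had a median log2 change of 2.05. Bub1b, Kif2c, Aurkb and Mad2l1, genes of the spindle and its checkpoint, had log2 changes of 2.09, 2.11, 2.12 and 1.52. Mki67, Aurka and Birc5 did not pass, at edgeR adjusted p of 0.0531, 0.0542 and 0.0659.

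Between SB spleens the members varied less than the median gene, and between WT spleens more. The median coefficient of variation over 3 animals was 17.9% for the members and 40.0% for all genes tested in SB, and 15.8% for the members and 8.29% for all genes tested in WT. The members were not matched to other genes by level. In the test of equality of the 3 SB animals, whose error is the spread between pieces, 21 of 39 members (53.8%) were called, where 72.9% of all 15523 genes were. These p compare the 3 spleens only. The 6 smallest edgeR adjusted p belonged to Rfc2 (1.61e-07), Pold1 (2.29e-05), Rrm2 (2.56e-05), Pole (8.76e-05), Pcna (0.000177) and Orc1 (0.000214). They did not share an order. Rfc2, Pold1 and Pole were highest in SB animal 1, and Rrm2, Pcna and Orc1 in SB animal 2. The highest SB animal over the lowest was 4.50 for Rrm2, 3.73 for Rfc2, 2.83 for Cdc6 and 2.58 for Orc1, and under 1.5 for 23 members, down to 1.06 for Tyms. Across the list SB animal 2 was highest for 20 members, SB animal 1 for 14 and SB animal 3 for 5, an order not counted over all genes.

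Among WT spleens, WT animal 3 was the lowest for nearly all members. It was lowest for 38 of 39, while WT animal 1 was highest for 28 and WT animal 2 for 11. This order was not counted over all genes. The highest WT animal over the lowest had a median of 1.36 and reached 2.60 for Rrm2 and 2.48 for Cdc6. In edgeR's test of the 3 WT animals 0 of 39 members were called, where 0.47% of all genes were called. Before adjustment 24 members had a p under 0.05 in that test. The share of all genes at that unadjusted threshold was not counted, so 24 has no background here. Erythroid precursor markers were also lowest in WT animal 3, with summed levels of 3531, 2516 and 1341 CPM in WT animals 1, 2 and 3, as did granulocyte precursor markers at 63.3, 26.7 and 12.6 CPM. Their part in the members' levels was not tested.

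Between the pieces of a spleen, replication RNA differed little in SB beside the distance to WT. The labels used here do not say where in a spleen a piece was taken. Piece 2 therefore need not be the same place in different spleens or genotypes. In SB 0 members were called between piece 2 and piece 1 by edgeR with the animal as a block, where 0.00644% of all genes were called. Before adjustment 7 members had a p under 0.05 in that test, a threshold at which all genes were not counted. SB animal 1 had the widest spread, from -0.74 for Mcm4 to 0.64 for Rfc3 on the log2(CPM + 1) scale, with 19 of 39 members higher in piece 2 and a median of -0.10. In SB animals 2 and 3 the medians were 0.09 and 0.03, with 33 and 24 of 39 members higher in piece 2.

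In WT 6 members were called, all higher in piece 2, which is 15.4% of the list where 9.75% of all genes were called. They were Rrm2 (log2 change 0.58, SE 0.12, adjusted p = 0.0183 in edgeR), Lig1 (0.39, SE 0.09), Tk1 (0.41, SE 0.10), Cdc6 (0.67, SE 0.17), Uhrf1 (0.36, SE 0.09) and Orc1 (0.59, SE 0.16). Before adjustment 11 members had a p under 0.05 in that edgeR test, a threshold at which all genes were not counted. Rrm2 stood at 134, 123 and 64.9 CPM in piece 2 and at 122, 68.8 and 37.6 CPM in piece 1 of WT animals 1, 2 and 3. Cdc6 stood at 23.0, 23.2 and 12.8 CPM in piece 2 and at 21.5, 11.5 and 6.04 CPM in piece 1 of the same animals. WT animals 2 and 3 carried most of the difference, and the median over the list was 0.05, 0.22 and 0.13 in WT animals 1, 2 and 3, with 23, 29 and 30 of 39 members higher in piece 2. The call count was 0 without the animal block. It was also 0 without WT animal 2 or WT animal 3, 2 without SB animal 3 and 11 without SB animal 1, in fits where all libraries share 1 estimate of the spread. Calls over all genes were not counted in these alternative fits, so their member counts have no background.

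Whether the piece difference itself differed between SB and WT was tested as an interaction, and 0 members were called, where 1.37% of all genes were called. Before adjustment 8 members had a p under 0.05 in that edgeR test, a threshold at which all genes were not counted. The nearest were Rrm2, with a difference of -0.67 (SE 0.17, adjusted p = 0.0716 in edgeR), and Cdc6, with -0.85 (SE 0.22, adjusted p = 0.0832 in edgeR). Erythroid precursor markers also differed between the pieces of WT spleens. They summed to 3904, 3800.1 and 2069 CPM in piece 2 and to 3108, 1275 and 786 CPM in piece 1 of WT animals 1, 2 and 3, and their part in the piece difference was not tested.

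**Figure D4:**
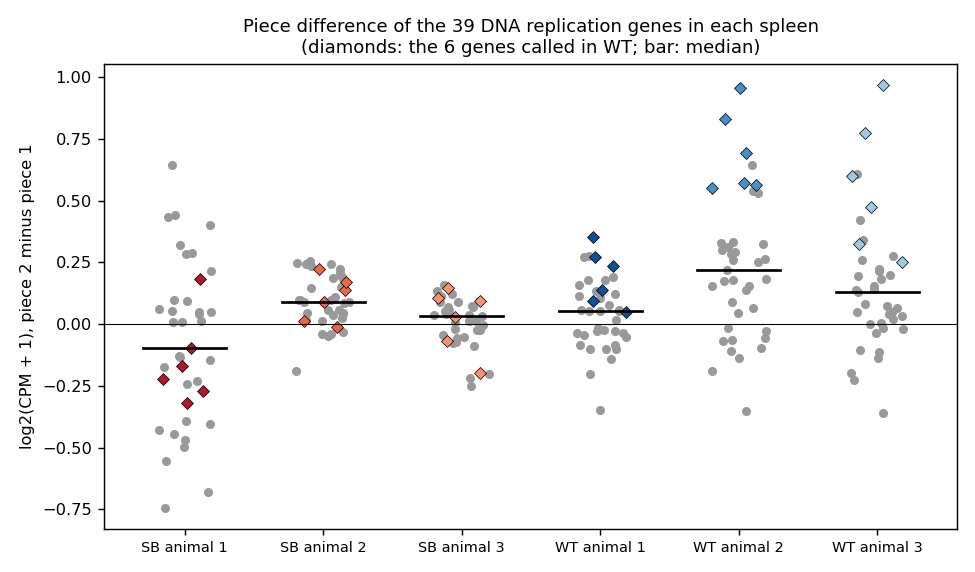
Each point is a member's log2(CPM + 1) in piece 2 minus that in piece 1 of a spleen, and bars are medians over the 39 members. The 6 diamonds, the members called in WT, sit above 0 in all WT spleens and on both sides of 0 in each SB spleen.

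Markers of blood precursors and of other cell types were read beside the members. The 6 granulocyte precursor markers summed to 292 to 683 CPM in SB libraries against 4.33 to 66.4 CPM in WT libraries, with 5 of 6 called higher, and the 7 megakaryocyte markers to 949 to 4572 CPM in SB against 179.6 to 626 CPM in WT, with 3 of 7 called higher. Erythroid precursor markers summed to 1497 to 12171 CPM in SB and 786 to 3904 CPM in WT, with 4 of 10 called higher. In SB animal 1 they summed to 1497 and 1901 CPM, inside the WT range, while the members summed to 5379 and 5940.3 CPM there, against at most 2493 CPM in WT. Single erythroid markers differed there. Alas2, the heme synthesis enzyme of red cells, had 132 CPM in SB animal 1 and 747 to 1762 CPM in WT animals, while 5 of the 10 markers, Gata1, Klf1, Epor, Tfrc and Rhag, were higher in SB animal 1 than in every WT animal. Rhag, a red cell membrane protein gene, had 206 CPM in SB animal 1 and 18.8 to 60.4 CPM in WT animals. Macrophage markers reached 10660.4 CPM in SB animal 2 and were at 323 to 917 CPM in the other SB spleens, against 756 to 1383 CPM in WT, with 0 of 7 called. Germinal centre B cell markers summed to 25.1 to 67.0 CPM in SB and 99.2 to 129 CPM in WT, with 2 of 5 called lower, and endothelial markers to 526 to 884 CPM in SB and 507 to 637 CPM in WT, with 2 of 6 called higher and 1 lower. No marker was at 0 in all animals of a genotype. The part of these cell types in the level of replication RNA was not tested.

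**Figure D5:**
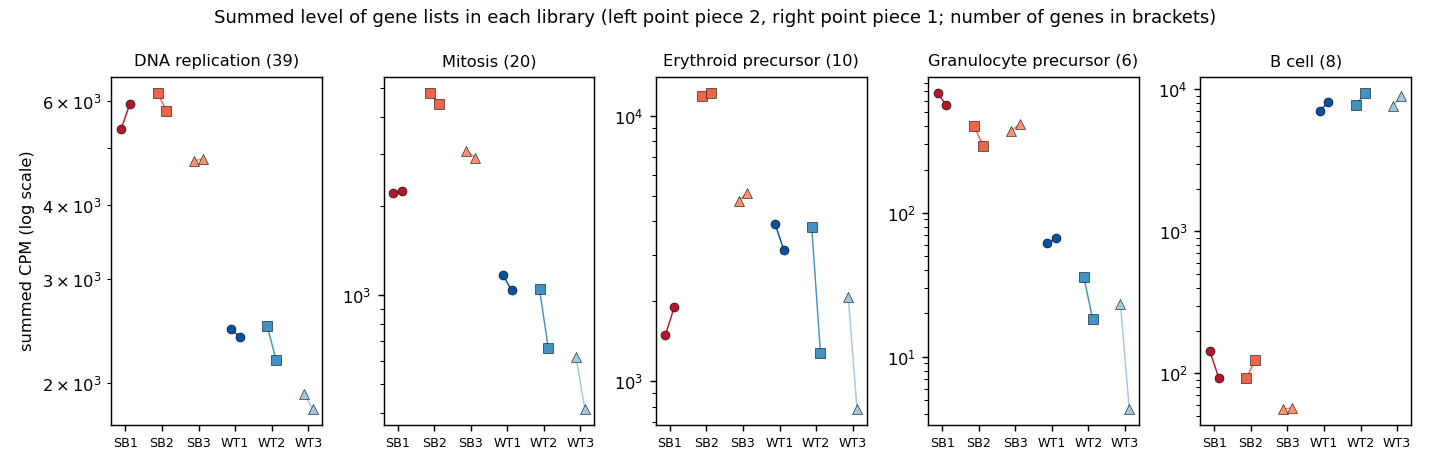
Summed CPM of 5 gene lists in each library on a log scale, the left point of each pair being piece 2 and the right point piece 1. Replication, mitosis and granulocyte precursor lists are higher in every SB library than in every WT library, the B cell list is lower, and the erythroid list overlaps.

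Neighbouring genes bear on how far the counts belong to the members, because the libraries carry no strand. In the GENCODE annotation of GRCm38, 11 members share exon bases with a protein-coding gene on the opposite strand. By share of a member's exon bases, the largest overlap was that of Fen1 with Gm10143, an antisense gene not annotated as protein-coding. In bases it was that of Chaf1a with Ubxn6, at 4648. Gm10143 had 2.10, 1.63 and 1.45 CPM in SB animals 1, 2 and 3 and 0.416 to 0.571 CPM in WT animals, and was called higher with a log2 change of 1.84 (SE 0.34, adjusted p = 0.0186 in edgeR), near the 1.80 of Fen1. Gins2 shares 67.3% of its exon bases with Gse1, which had 156, 46.8 and 204 CPM in SB animals 1, 2 and 3 and 26.7 to 28.4 CPM in WT, whereas Gins2 was even at 20.6, 20.4 and 18.3 CPM in SB animals 1, 2 and 3. Chaf1a shares 52.5% with Ubxn6, which had a log2 change of -0.31 (SE 0.14). Rfc2 shares 15.1% with Lat2, an adaptor of B and myeloid cells that had 195, 64.1 and 4.22 CPM in SB animals 1, 2 and 3 and 99.2 to 107 CPM in WT, so both were highest in SB animal 1 and lowest in SB animal 3. Whether reads of these partners enter the members' counts cannot be told from the table. Pcna-ps2, a copy of Pcna, had 44.0, 74.0 and 40.3 CPM in SB animals 1, 2 and 3 and 10.03 to 12.6 CPM in WT, and reads of Pcna and its copy may be split between them.

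Genes that share a start region with a member were read beside it. For 8 members a protein-coding gene begins nearby on the opposite strand, and 6 of these members and 1 of the 8 partners were called, where 18.3% of all genes tested were called in either direction. The share of partners called was thus near that of all genes. Mcm4 and Prkdc, a DNA repair kinase gene, start 466 bases apart, and Prkdc averaged 54.2 ± 19.7 CPM in SB and 55.5 ± 1.34 CPM in WT (log2 change -0.03, SE 0.29). Pole and Pxmp2 start 120 bases apart, and Pxmp2 had a log2 change of 0.58 (SE 0.34, adjusted p = 0.272 in edgeR). Vps35, which shares 171 exon bases with Orc6, was the called partner, with a log2 change of 0.73 (SE 0.17, adjusted p = 0.0372 in edgeR).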

How the data were processed

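Poly-A RNA of 12 spleen pieces was sequenced without strand information, per the protocols in the labels. The authors deposited whole-number read counts per Ensembl gene, 1 column per piece and 0 columns of other samples. STAR 2.5.3a and limma, and the builds mm10 and GRCm38, are named in the submitters' processing notes with no role. The counting mode is not given in the sources used here. Of 32121 identifiers 32026 were matched to GENCODE, GRCm38, for symbols and exons.

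Groups came from the genotype label and the replicate was the animal, with the counts of its 2 pieces summed. Nothing else in the labels describes the animals as separate litters or cohorts. SB was set against WT with edgeR 4.0.16 in R 4.3.3 (TMM, filterByExpr, robust quasi-likelihood fit, two-sided, Benjamini-Hochberg adjusted over 17328 genes). Pieces, their interaction with genotype, and animals were tested on 12 libraries and 15523 genes. SE values come from the F statistic. The scripts were tested on simulated counts with known changes. The simulated spread was set far smaller than that of the data, whose common biological coefficient of variation was 49.7% in the animal fit. The simulation checks the scripts and gives no rate of missed or false calls for these data.

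Pieces are paired by the animal in their titles. Sections 1 and 2 of SB, and sections A and B of WT, were taken as pieces 1 and 2. The deviations of pieces 2 and 1 of an animal from their group means correlated at 0.916, 0.933 and 0.930 in SB and 0.344, 0.151 and 0.410 in WT. Pieces differed by more than counting noise (chi-square per degree of freedom 6.09 to 41.6 over genes with at least 20 summed counts), so no library was taken as a repeat deposit of another.

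The members, the lists and the tests were chosen with earlier results of these data known. Values by library or animal are given for the members with the smallest and the largest adjusted p of each role. Every member that did not pass is named, as are up to 4 called genes per direction of other lists, Gmnn, members called between pieces, and the 6 with the smallest adjusted p between SB animals. Alternatives were other scalings, DESeq2 1.42.0, no filter on low counts, leaving out globin and immunoglobulin genes, a single piece, each animal left out and no animal block. An older quasi-likelihood method was added after the data were seen.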

Additional observations from a re-analysis of the deposited data

Results flagged for a closer look

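In 5 of 78 groups of 6 libraries (each member in each genotype) a library stood apart from the other 5 by more than Dixon's 95% limit, a share that chance would also give at about 1 in 20, and the pieces of a spleen are not independent. All 5 were pieces of SB animal 1. Mcm4 stood at 110 CPM in piece 2, below the next SB library at 185 CPM, and Fen1 at 5.13 CPM in piece 2, below the next at 8.82 CPM. Prim1 stood at 111 CPM in piece 2, above the next SB library at 86.6 CPM. Mcm5 stood at 346 CPM in piece 1, above the next at 290.3 CPM, and Prim2 at 66.0 CPM in piece 1, above the next at 56.0 CPM.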

How the results depend on the processing

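With all animals, the count of members called higher was 28 to 34 under other scalings, DESeq2, no filter, the globin and immunoglobulin genes left out, a single piece or the older method, and 0 were called lower. DESeq2 called Orc1, Rfc3, Rpa2 and Rrm2 in addition. Upper quartile scaling gave a median log2 change of 1.46 for the members and moved that of all genes tested from 0.11 to -0.02. It called 1139 genes higher and 1962 lower, where TMM called 1489 and 1689. DESeq2 called 5546 genes, 2777 of them higher.

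Leaving out each animal in turn gave 9 to 32 members called higher, a median of 1.46 to 1.68, 3 to 41 pathway genes called higher and 1 to 5 lower, and 554 to 6409 genes called in all, 86 to 3085 of them higher. Over these fits the log2 change of Rfc2 ran from -0.317 to 0.824 and that of Pold1 from -0.000974 to 0.444, and both lows were without SB animal 1. Between pieces, leaving out an animal gave 0 to 11 members in WT, 0 to 1 in SB and 0 to 2 for the difference. In WT the count was 0 with no animal block and 3 with no filter. Members called between WT animals numbered 1 with DESeq2 size factors and 2 with no filter. For these piece and animal fits, calls over all genes were not counted. No pairing of SB with WT animals was possible because no label links them. With 3 animals per genotype, a member that was not called may still differ.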
